A study of Mus musculus with 21 samples.

Results

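The S100 genes encode small calcium-binding proteins, and 10 of the mouse genes were followed here by their symbols: S100a7a, S100a8, S100a9, S100a1, S100a4, S100a6, S100a10, S100a11, S100a14 and S100a16. Each symbol was matched to its Ensembl identifier in the gene count table, which gave 10 of 48440 genes, and all 10 passed the filter on low counts that left 21237 genes for testing. The set was chosen by the CPM values of S100a7a, which was higher after knockdown in the M6 line, so it was selected on results of these data. The values of the members in that comparison are therefore given as a description, and no support is drawn from them.

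The libraries came from 3 mouse cell lines in which the level of Esrp2-as, a long noncoding RNA antisense to Esrp2, had been altered. M6 and M27H4 were derived from mammary tumours of mice in which the C3(1) promoter drives the SV40 large T antigen. The third line, 3T3-L1, consists of preadipocytes. Each is a single line, so a difference between them is a difference between lines and not between tissues. The 6 groups held 14 biological replicates, all grown in the same serum-supplemented medium: M6 with an LNA gapmer (a chemically stabilised antisense oligonucleotide) against Esrp2-as (n = 2) and M6 control (n = 2), M27H4 overexpressing Esrp2-as (n = 3) and M27H4 control (n = 3), and 3T3-L1 overexpressing Esrp2-as (n = 2) and 3T3-L1 control (n = 2). The controls of all 3 lines are labelled as empty vector, also in M6, where the knockdown used an oligonucleotide. The labels call the replicates biological without saying that they came from separate cultures, so the p-values measure the spread between these samples only.

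S100 proteins carry a pair of EF-hand loops, bind calcium and usually work as dimers that change shape and grip a target protein. Inside the cell they regulate membranes, the cytoskeleton and calcium handling. Several are also released and act as alarm signals through receptors such as RAGE (gene Ager) and Tlr4. S100a8 and S100a9 form calprotectin, best known from neutrophils and from inflamed epithelium. S100a7a is the mouse relative of psoriasin, a protein of irritated epidermis and of some breast tumours. S100a10 pairs with annexin A2 and S100a11 with annexin A1, S100a6 (calcyclin) binds Cacybp, S100a4 binds non-muscle myosin and is abundant in fibroblasts and in motile tumour cells, and S100a14 and S100a16 are mainly epithelial.

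The summed counts per replicate ran from 34892461 to 328493417. Levels are given as CPM, the counts scaled to a common library size after TMM normalisation, and per kilobase of merged exon wherever genes are set beside each other. Esrp2-as stood at 2.96 and 2.42 CPM in M6 control and at 0.527 and 0.851 CPM in M6 knockdown. Its level was 0.731 to 1.25 CPM in M27H4 control against 15.9 to 65.9 CPM with overexpression, and 0.250 to 0.355 CPM against 35.5 to 45.8 CPM in 3T3-L1. The summed level of 14 epithelial markers was 5163 to 7405 CPM in M6 control, 166 to 306 CPM in M27H4 control and 31.2 to 39.9 CPM in 3T3-L1 control. The epithelial marker Epcam was between 0.0488 and 8.14 CPM in M27H4 control, so M27H4 largely lacked this marker, which M6 held at 624 to 837 CPM. All 14 were lower in M27H4 than in M6, but unevenly. Cdh1 remained at 113 to 168.5 CPM in M27H4 control, against 472 to 750 CPM in M6 control. Krt18 was at 36.2 to 76.5 CPM against 752 to 1241 CPM. The sum of 13 fibroblast and preadipocyte markers ran in the opposite order, with 324 to 821 CPM in M6 control, 1910 to 3568 CPM in M27H4 control and 6531 to 7115 CPM in 3T3-L1 control. Of the 13, 11 were higher in M27H4 than in M6, but Postn (means 39.8 and 3.35 CPM in M6 and M27H4) and Twist2 were lower. Likewise 11 were higher in 3T3-L1 than in M27H4. Fn1 (means 1586 and 495 CPM in M27H4 and 3T3-L1) and Pdgfra (866 and 275 CPM), which made up most of the M27H4 sum, were lower.

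The number that ends each data column name was read here as the sequencing lane, which the sample titles do not state. By this reading lanes were shared between lines, which touches the lowest levels below. All 6 sequenced columns of 3T3-L1 and 6 of the M27H4 columns came from lanes that also carried M6 columns. In those 3T3-L1 columns Epcam reached 0.248 to 0.591% of the M6 counts in the same lane. For S100a8 the share was 0.648 to 1.46%, for S100a14 it was 0.625 to 1.25%, and for S100a9 it was 0 to 0.319%. The M27H4 columns on the lane without M6 held 3 and 5 counts of Epcam, and there S100a8 had 800 and 296 counts, S100a14 had 334 and 214 counts, and S100a9 had none. Whether reads passed between libraries of a lane was not tested.

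Together the 10 genes made up 0.163% of counts in M6 control and 0.214% in M27H4 overexpression, with the other groups between these. In M6 the summed level of the members was 1630 ± 854 CPM in control and 1657 ± 391.9 CPM in knockdown (SD, n = 2 each). M27H4 control had 1946 ± 384 CPM (SD, n = 3) and 3T3-L1 control 1778 ± 112 CPM (SD, n = 2). S100a6, the calcyclin gene, supplied most of this sum in the 2 tumour lines, and the sums of the 6 groups lay within the SD of M6 control. The family total thus differed by less than the spread of M6 control, while single members differed by line.

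**Figure D1:**
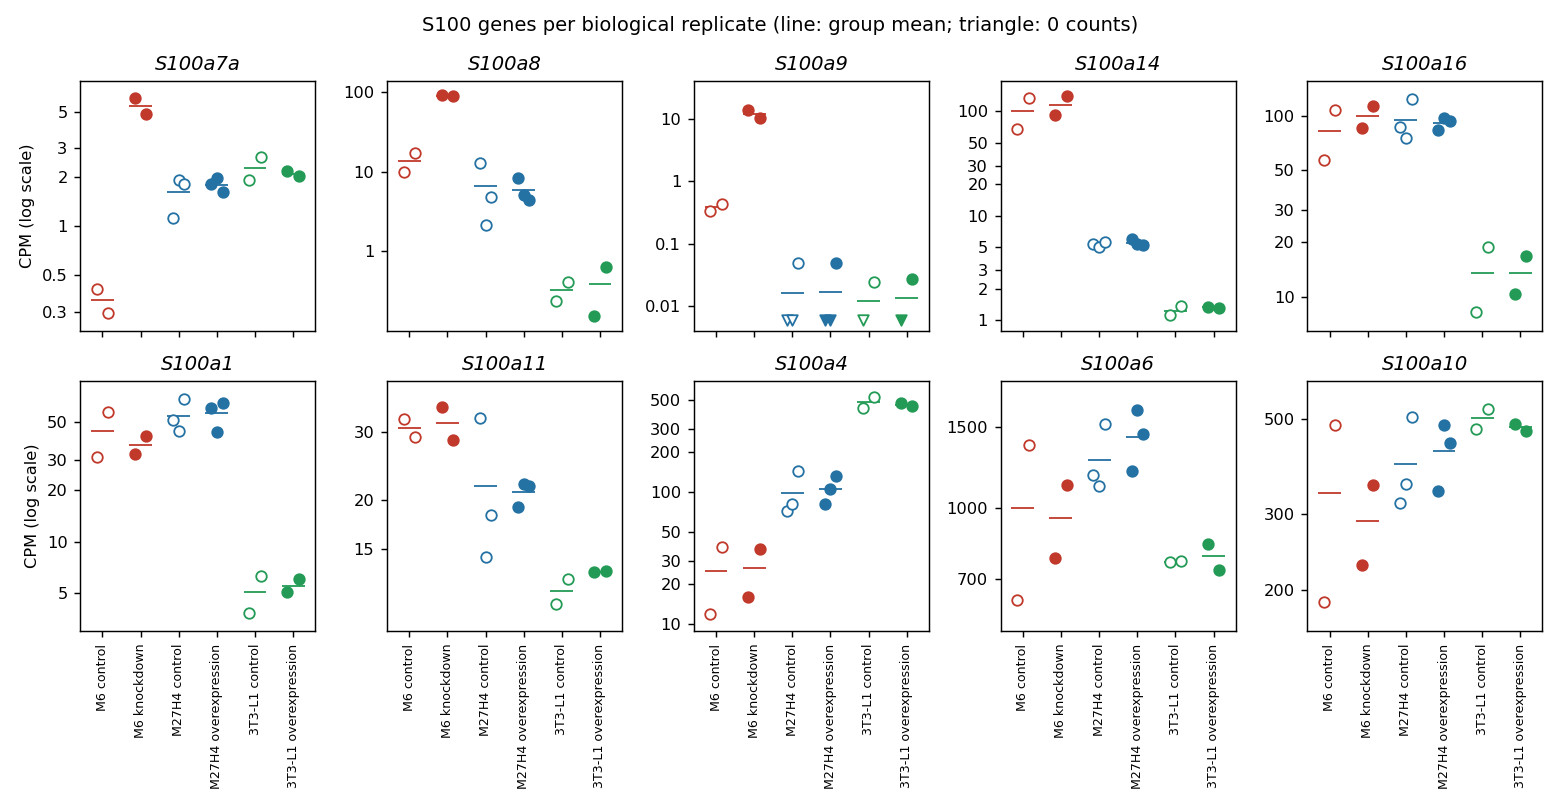
Level of each S100 gene in CPM (log axis, scaled separately in each panel) for every biological replicate of the 6 groups; open circles are controls, filled circles are knockdown or overexpression, horizontal lines are group means, and triangles are replicates with 0 counts placed at an arbitrary low position. S100a7a, S100a8 and S100a9 separate M6 knockdown from M6 control, and in the other panels the M6 groups overlap.

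Knockdown of Esrp2-as in M6 went with higher values of S100a7a, S100a8 and S100a9, the inducible secreted members, and the other 7 members had overlapping ranges. With n = 2 in each group, ranges can separate by chance. The share of all genes with separate ranges was not counted, so nothing is read from the number of such members. S100a7a, the psoriasin relative, was at 0.414 and 0.295 CPM in the control replicates and at 6.08 and 4.86 CPM in the knockdown replicates, from 20 and 91 counts against 288 and 867. Both knockdown replicates lay above both controls, and the log2 difference of the means was 3.98 ± 0.39 (SE), or 15.8-fold.

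S100a8, a calprotectin subunit, was at 9.98 and 17.4 CPM in M6 control and at 91.3 and 89.97 CPM in M6 knockdown. The summed knockdown replicates were nearly equal, but the 2 sequenced columns of knockdown replicate 2 differed, at 105.6 and 72.5 CPM of the column total. The controls spread 1.74-fold, and the groups did not overlap, with a log2 difference of 2.72 ± 0.81 (SE), or 6.61-fold. S100a9, its partner subunit, was at 0.331 and 0.425 CPM in control and at 13.5 and 10.1 CPM in knockdown. These groups did not overlap either, and the log2 difference was 4.94 ± 1.14 (SE), or 30.6-fold. Per kilobase of exon, S100a8 exceeded S100a9 by 22.7-fold and 30.7-fold in the control replicates and by 5.07-fold and 6.72-fold in the knockdown replicates, so that the 2 calprotectin subunits were closer to each other in level after knockdown.

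At an adjusted p under 0.05 (edgeR quasi-likelihood test over all genes), 1 of the 10 members, S100a7a, was called in this comparison, against 0.137% of all genes tested. This count follows from how the set was chosen and is not read further. The call of S100a7a was absent when only the M6 groups were fitted (adjusted p = 0.103), and the values of S100a8 and S100a9 did not reach the threshold in the fit of all groups. The median log2 difference of the 10 members was 0.14, beside -0.03 over all genes tested.

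The M6 control and knockdown libraries met on 1 lane whose labelled libraries were all M6, which allows the same reading within a lane. On that lane S100a7a was at 0.448 and 0.465 CPM of the column total in control and at 6.52 and 5.01 CPM in knockdown. S100a8 was at 10.8 and 15.1 CPM against 98.0 and 105.6 CPM, and S100a9 at 0.359 and 0.375 CPM against 14.5 and 11.03 CPM. For all 3 genes both knockdown columns on the lane lay above both control columns.

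The other 7 members differed more between replicates than between the M6 groups. S100a4 was at 11.8 and 38.0 CPM in control and at 15.8 and 36.8 CPM in knockdown, so that replicate 2 exceeded replicate 1 by 3.22-fold and 2.33-fold while the log2 difference between groups was 0.08 ± 0.52 (SE). S100a6 was at 629 and 1367 CPM in control and at 779 and 1119 CPM in knockdown. S100a10, the annexin A2 partner, was at 187 and 483 CPM in control and at 228 and 351 CPM in knockdown. In these genes too replicate 2 was the higher in each group, by 1.44-fold to 2.58-fold.

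S100a14 was at 67.4 and 133.8 CPM in control and at 92.9 and 139.3 CPM in knockdown, and S100a16 was at 56.6 and 107.2 CPM against 85.9 and 113.1 CPM. Both epithelial members overlapped between the groups. S100a1, a regulator of calcium cycling and best known from muscle, was at 31.4 and 57.5 CPM against 32.5 and 41.2 CPM. S100a11 had the closest replicates, at 32.6 and 29.1 CPM in control and 34.9 and 28.6 CPM in knockdown, with a log2 difference of 0.04 ± 0.30 (SE). Over these 7 genes the log2 differences ran from -0.27 for S100a1 to 0.28 for S100a16.

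The members with non-overlapping values are neighbours in the genome. In GENCODE M21 on GRCm38, S100a7a lies on the plus strand of chromosome 3 from 90654017 to 90658669, S100a8 on the plus strand from 90668978 to 90670035, and S100a9 on the minus strand from 90692632 to 90695721. Counted from where each gene starts on its own strand, S100a8 lies 14961 bases and S100a9 41704 bases from the start of S100a7a. S100a6, the next tested gene on the other side at -41.1 kb, had a log2 difference of -0.07 ± 0.31 (SE). S100a4 at -50.2 kb, S100a16 at -116.8 kb, S100a14 at -127.2 kb and S100a1 at -139.6 kb lay between -0.27 and 0.28. Chtop, Snapin and Ilf2, which are not S100 genes and flank the cluster on the same side as S100a6, had log2 differences of 0.03, 0.11 and -0.05. Beyond S100a9 the stretch examined held Gm42579 at 55.6 kb, which was not tested. How far the higher values reach on that side is therefore not known. S100a11 and S100a10 stand apart from this cluster, with starts at 93520488 and 93555080 on the same chromosome. S100a1 and S100a13 lie head to head, and S100a4 overlaps the predicted gene Gm42674, so their counts could be split between neighbours where the authors' counting did not separate them.

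**Figure D2:**
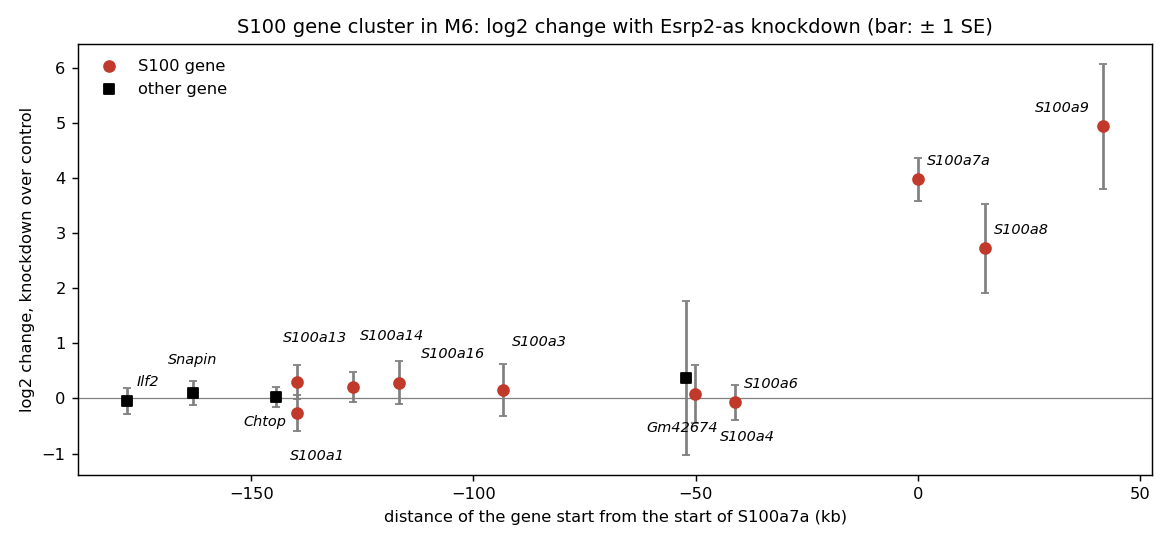
Log2 difference of M6 knockdown over M6 control (vertical axis, bars ± 1 SE from the fit of all groups) against the distance of each gene's start from the start of S100a7a in kb, for tested genes of the cluster with at least 0.1 CPM in either group; circles are S100 genes and squares other genes. S100a7a, S100a8 and S100a9 lie at 2.72 to 4.94 at the right-hand end, and the genes to their left lie near 0, with a wide error for Gm42674. No gene beyond S100a9 is shown.

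Sequence next to the start of these 3 neighbours is shown because they differed together in M6, from the RefSeq promoter windows on GRCm38.p6 and limited to bases outside annotated exons. The stretches are written 5′ to 3′ on the strand of the gene. The stretch of S100a7a (chr3:90654099-90654286, plus strand) lies shortly before the start of its counted transcript, inside the first intron of another annotated transcript. Those of S100a8 (chr3:90668821-90668977, plus strand) and S100a9 (chr3:90695722-90695971, minus strand) end at the annotated gene start. Capitals mark matches, on either strand, to any of 5 motifs: AP-1 as TGANTCA, C/EBP as TTGCNNAA, NF-kB as GGG and CC with 5 bases between them, an E-box as CACCTG, and a TATA box as TATAAA.
S100a7a: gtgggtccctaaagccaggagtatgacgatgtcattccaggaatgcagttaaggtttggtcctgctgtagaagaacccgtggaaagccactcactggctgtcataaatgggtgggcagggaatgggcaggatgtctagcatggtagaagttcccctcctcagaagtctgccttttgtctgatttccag
S100a8: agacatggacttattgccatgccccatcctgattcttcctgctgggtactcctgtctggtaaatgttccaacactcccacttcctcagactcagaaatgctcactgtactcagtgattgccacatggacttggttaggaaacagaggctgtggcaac
S100a9: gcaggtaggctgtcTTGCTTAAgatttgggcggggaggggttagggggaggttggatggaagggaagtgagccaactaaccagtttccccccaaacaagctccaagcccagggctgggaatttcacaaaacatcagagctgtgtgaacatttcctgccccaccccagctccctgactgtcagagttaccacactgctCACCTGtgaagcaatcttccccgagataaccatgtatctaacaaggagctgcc
The S100a9 stretch held the C/EBP letters and the E-box letters, which do not overlap. Among 32851 promoters cut to the same length of 250 bases, 9.6% held the C/EBP letters and 17.2% the E-box letters. None of the 5 motifs was found in the 188 bases of S100a7a or the 157 bases of S100a8, which says only that these letters are not in these windows. The stretches held 2, 0 and 2 CpG dinucleotides in the order S100a7a, S100a8, S100a9, and 35.8%, 13.7% and 29.0% of promoters of the same length held as few.

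The transcript counts held only 1 transcript of S100a7a, S100a7a-201, so its share was 100% in every group by construction. This cannot show whether another start of the gene was used. For S100a9 the M6 control replicates disagreed, since all 131 counts of replicate 2 were assigned to S100a9-201 and all 16 counts of replicate 1 to S100a9-202. S100a9-201 took 78.3 to 88.0% in the knockdown replicates, and no difference between the groups is read from these estimates.

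Markers of neutrophils and other myeloid cells, a known source of S100a8 and S100a9, were read in the same libraries. The summed level of 14 such markers was 9.15 to 14.3 CPM in M6 control and 9.87 to 12.8 CPM in M6 knockdown, so the ranges overlapped. Most of that sum was Csf1r, at a mean of 9.32 CPM in control and 7.88 CPM in knockdown. Mpo, Ngp, Csf3r and Adgre1 had 0 counts in both M6 groups. Without overlap between the groups, Ptprc was at 0.166 to 0.396 CPM in control and 0.612 to 0.890 CPM in knockdown, and Ly6g had 3 counts in control and 47 in knockdown, at most 0.232 CPM. Of the 7 myeloid markers tested, 5 had a positive log2 difference, with a median of 0.59. Of these 7, 0 were called (edgeR adjusted p of 0.364 or more), beside 0.137% of all genes tested. Their part in the values of S100a8 and S100a9 was not tested. The epithelial markers summed to 4960 to 7125 CPM in knockdown, beside 5163 to 7405 CPM in control.

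No gene of the lists of S100 partners, receptors and inducers passed the test in M6 knockdown. Only 0.137% of all genes tested were called there, so these counts of 0 say nothing particular to the lists. Of 27 partners and targets 0 were called, and their median log2 difference was -0.03. Dysf, the membrane-repair protein dysferlin, which S100a10 and annexins join, had the smallest adjusted p of them at 0.0646, with 2.08 ± 0.22 CPM (SD, n = 2) in control and 0.367 ± 0.281 CPM (SD, n = 2) in knockdown by edgeR. Anxa2, the S100a10 partner, was at 613 ± 292 CPM in control and 687 ± 202 CPM in knockdown (SD, n = 2 each), and Anxa1 at 814 ± 166 CPM and 812 ± 118 CPM (SD, n = 2 each). The annexin partners thus overlapped between the groups, as S100a10 and S100a11 did.

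Among 14 receptors and signalling genes 12 were tested and 0 were called. Tlr4 was at 60.5 ± 16.4 CPM in control and 67.2 ± 11.4 CPM in knockdown (SD, n = 2 each), and Ager, which encodes RAGE, at 2.19 ± 0.50 CPM and 1.05 ± 0.08 CPM (SD, n = 2 each). The integrin gene Itgb2 had the smallest adjusted p of this list, 0.137 by edgeR, with a log2 difference of 2.06 ± 0.44 (SE). Of 15 inducers and regulators 14 were tested and 0 were called. Il1a, an epithelial alarm cytokine, was at 44.6 ± 12.4 CPM in control and 353.5 ± 68.3 CPM in knockdown (SD, n = 2 each) without overlap, but its log2 difference of 2.99 ± 1.66 (SE) had an adjusted p of 0.939 by edgeR. Cebpb was at 162 and 137 CPM and Tnf at 44.4 and 43.8 CPM (means of control and knockdown), within the spread of the replicates.

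Of 8 other S100 genes, 6 were tested and 0 were called in M6 knockdown, nor was any of the 6 tested among 22 fused S100 and epidermal differentiation genes. S100a13 and S100a3, the best expressed of the other S100 genes in the cluster, had log2 differences of 0.30 and 0.16. In each of the 2 overexpression comparisons 0 genes of any of these lists were called, beside 0.00942% (M27H4) and 0.00471% (3T3-L1) of all genes tested. These counts of 0, like those in M6 knockdown (0.137% of all genes), are near the shares of all genes and are not read further.

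Overexpression of Esrp2-as moved no member past the test in either line. In M27H4, 0 of 10 members were called at an adjusted p under 0.05 by edgeR, against 0.00942% of all genes tested. In 3T3-L1, 0 of 10 were called, against 0.00471% of all genes. No member reached an unadjusted p under 0.05 in either line, and DESeq2 called 0 members in both.

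S100a7a was at 1.12, 1.91 and 1.82 CPM in M27H4 control and at 1.81, 1.98 and 1.62 CPM with overexpression. The groups overlapped, and the log2 change was 0.15 with a 95% interval from -0.46 to 0.76. In 3T3-L1 it was at 1.92 and 2.67 CPM in control and at 2.19 and 2.02 CPM with overexpression, a log2 change of -0.12 with an interval from -0.85 to 0.61. The 3T3-L1 overexpression replicates lay between the 3T3-L1 controls.

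S100a8 had the widest intervals of the members apart from S100a9. It was at 13, 2.14 and 4.76 CPM in M27H4 control and at 8.23, 5.06 and 4.43 CPM with overexpression, and replicate 1 was the highest in each group. The log2 change was -0.17 with a 95% interval from -1.56 to 1.22. In 3T3-L1 S100a8 was at 0.232 and 0.412 CPM in control and 0.151 and 0.622 CPM with overexpression, from 36 to 70 counts per replicate, with an interval from -1.69 to 2.13. S100a9 had 0, 0 and 6 counts in the M27H4 control replicates and 0, 0 and 6 with overexpression. In 3T3-L1 it had 0 and 3 counts in each group, and no fold is given. All these S100a9 counts came from 1 lane, which also carried an M6 knockdown library. They equalled 0.319% (3T3-L1) and 0.638% (M27H4) of the S100a9 counts of that library.

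For the other 7 members the log2 changes ran from -0.06 to 0.17 in M27H4 and from -0.07 to 0.17 in 3T3-L1. S100a11 in 3T3-L1 did not overlap, at 10.8 and 12.5 CPM in control and 13.04 and 13.1 CPM with overexpression. Its 95% interval of the log2 change ran from -0.485 to 0.821. S100a6 was at 1177, 1117 and 1517 CPM in M27H4 control and at 1201, 1632 and 1444 CPM with overexpression, an overlap with a 95% interval of the log2 change from -0.39 to 0.72. S100a14 had the narrowest interval in M27H4, from -0.44 to 0.55, with 5.43, 4.98 and 5.60 CPM in control and 5.95, 5.40 and 5.31 CPM with overexpression. S100a4 in 3T3-L1 was at 436 and 520 CPM in control and 469 and 445 CPM with overexpression. Its overexpression replicates lay between the controls, and the interval ran from -1.20 to 1.07.

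**Figure D3:**
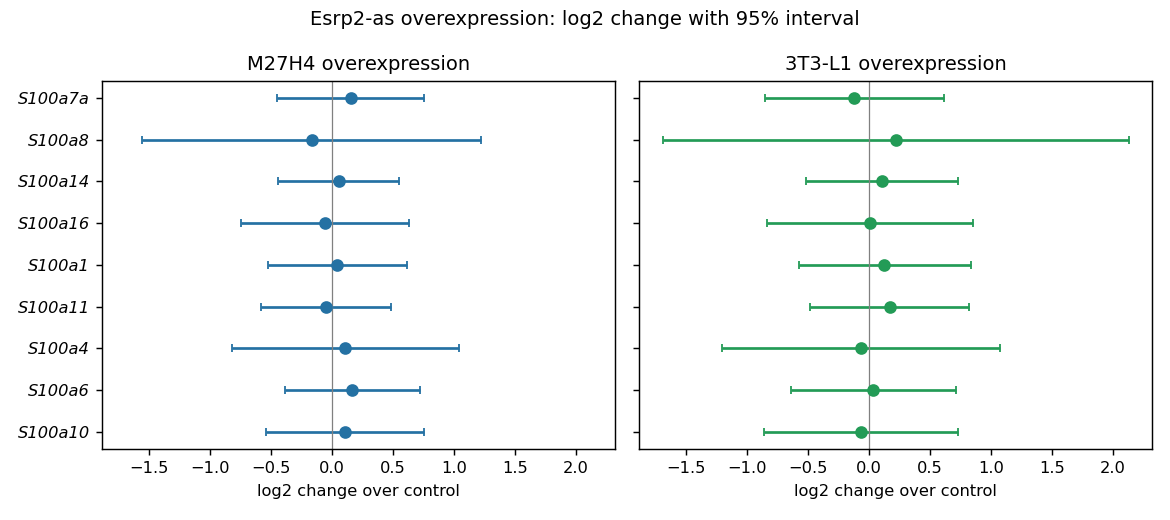
Log2 change of overexpression over control (horizontal axis, the same in both panels) with 95% intervals from the fit of all groups, for 9 members in M27H4 (left) and 3T3-L1 (right); S100a9 is left out because it had 6 counts or fewer in each replicate. Every interval includes 0, and those of S100a8 are the widest.

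The effect of overexpression was compared between the lines by an interaction contrast. It called 0 of 10 members (0.00471% of all genes tested). The median difference of the log2 changes was -0.02 over the members and -0.015 over all genes tested. S100a7a had a difference of 0.27 and S100a8 of -0.39 on the log2 scale.

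The control libraries of the 3 lines differed in several S100 genes. M27H4 control held more S100a4 and less S100a14 and S100a9 than M6 control, and 3T3-L1 control held still more S100a4 and less S100a14, S100a8, S100a9, S100a1, S100a16 and S100a11 than M6 control. These 2 comparisons share the M6 control replicates. In M27H4 against M6, 4 of 10 members were called (2 higher, 2 lower), beside 30.2% of all genes tested (15.2% higher, 15% lower). In 3T3-L1 against M6, 8 of 10 were called (2 higher, 6 lower), beside 39.4% of all genes (20.5% higher, 18.9% lower). In 3T3-L1 against M27H4, 6 of 10 were called (1 higher, 5 lower), beside 36.6% (18.9% higher, 17.8% lower). The median log2 differences of the members were 0.22, -2.00 and -0.84 in this order, against 0.02, 0.05 and 0.02 over all genes tested. The higher calls against M6 include S100a7a, and the medians include it too. Its M6 control values entered the choice of the set, so its calls against M6 are a description and carry no support.

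Among controls, ordered per kilobase of exon, S100a6 was the highest member in M6 at 730 ± 382 CPM per kb (SD, n = 2) and in M27H4 at 929 ± 158 CPM per kb (SD, n = 3). In 3T3-L1 S100a4 led with 819 ± 102 CPM per kb and S100a6 followed with 559 ± 3 CPM per kb (SD, n = 2 each). S100a10 was next in M6 at 277 ± 173 CPM per kb (SD, n = 2), and both its replicates lay below those of S100a6. At the low end S100a7a was at 0.258 ± 0.061 CPM per kb in M6, below S100a9 at 0.725 ± 0.127 CPM per kb (SD, n = 2 each). In M6 control S100a1, S100a11, S100a14, S100a16 and S100a4 lay between 42.6 and 64.0 CPM per kb as group means, with overlapping replicates, so no order among them is given.

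**Figure D4:**
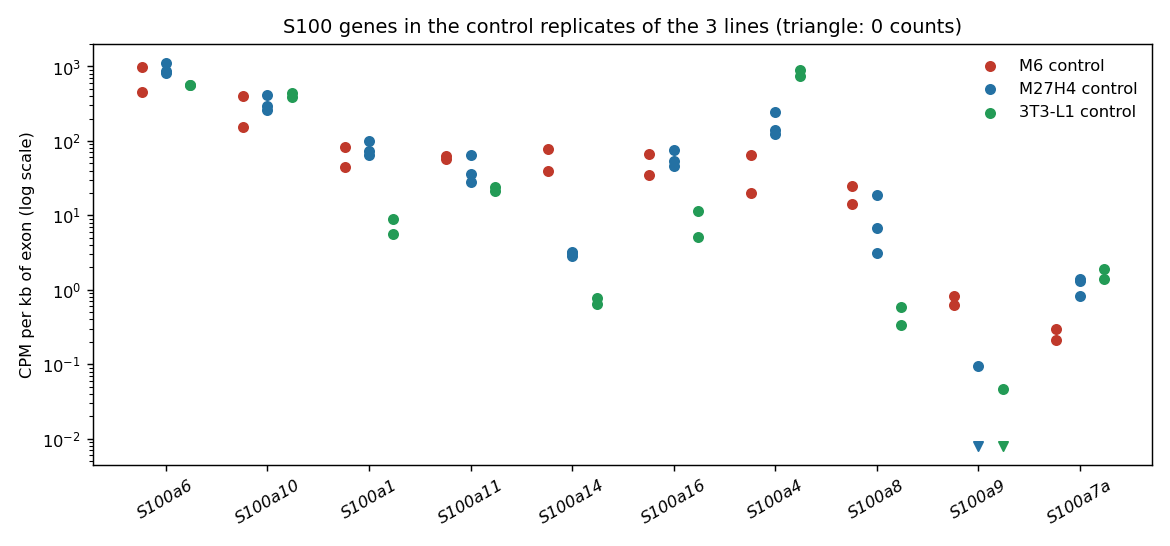
Level of each member in CPM per kb of merged exon (log axis) in the control replicates of M6, M27H4 and 3T3-L1, with genes ordered by their mean in M6 control; each point is a biological replicate and triangles stand for replicates with 0 counts at an arbitrary low position. S100a6 and S100a10 are high in all 3 lines, S100a4 runs upward from M6 to 3T3-L1, and S100a14 runs downward.

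S100a4, the fibroblast- and motility-associated member, was at 11.8 and 38.0 CPM in M6 control, at 71.3, 80.7 and 142.8 CPM in M27H4 control and at 436 and 520 CPM in 3T3-L1 control. The 3 lines did not overlap. The log2 difference was 1.98 ± 0.51 (SE) for M27H4 over M6 (edgeR adjusted p = 0.0116), 4.26 ± 0.59 for 3T3-L1 over M6 (edgeR adjusted p = 0.000136) and 2.28 ± 0.47 for 3T3-L1 over M27H4 (edgeR adjusted p = 0.00259). The first of these was not called without M6 control replicate 1 (log2 1.37, edgeR adjusted p = 0.0713) or with only the groups compared (adjusted p = 0.0561), and it was 3.05 without M6 control replicate 2. Without these replicates the 3T3-L1 over M6 value was 3.66 and 5.35.

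S100a14 ran in the other order. It was at 67.4 and 133.8 CPM in M6 control, at 5.43, 4.98 and 5.60 CPM in M27H4 control and at 1.12 and 1.36 CPM in 3T3-L1 control. M27H4 was lower than M6 by 18.9-fold (log2 -4.24 ± 0.27 SE, edgeR adjusted p = 1.49e-07) and 3T3-L1 by 81.4-fold (log2 -6.35 ± 0.35 SE, edgeR adjusted p = 2.77e-08), the second falling to -5.76 without M6 control replicate 2. The level in M27H4 replicate 1, from the lane without M6, was as high as in the other M27H4 replicates. The 3T3-L1 counts stood at the lane shares given above for S100a14, beside the lower shares of Epcam.

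S100a16, S100a1 and S100a11 were not called apart between the tumour lines and were low in 3T3-L1. S100a16 was at 86.5, 75.3 and 123.5 CPM in M27H4 control, inside and around the 56.6 and 107.2 CPM of M6 control, and at 8.22 and 18.7 CPM in 3T3-L1 control. Its log2 difference of 3T3-L1 was -2.60 ± 0.41 (SE) from M6 (edgeR adjusted p = 0.000222) and -2.82 ± 0.40 (SE) from M27H4 (edgeR adjusted p = 0.000103), and without 3T3-L1 control replicate 2 these were -3.30 and -3.52. S100a1 was at 51.1, 44.4 and 68.3 CPM in M27H4 control and at 3.85 and 6.28 CPM in 3T3-L1 control. It was lower in 3T3-L1 by 8.80-fold than in M6 (edgeR adjusted p = 1.16e-05) and by 10.8-fold than in M27H4 (edgeR adjusted p = 5.24e-06).

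S100a11, a partner of annexin A1, was at 32.7, 14.3 and 18.3 CPM in M27H4 control and at 10.8 and 12.5 CPM in 3T3-L1 control, against 32.6 and 29.1 CPM in M6 control. The difference of 3T3-L1 from M6 was called (log2 -1.41 ± 0.31 SE, edgeR adjusted p = 0.00255). That from M27H4 (log2 -0.90 ± 0.28 SE, edgeR adjusted p = 0.0235) was lost with only the groups compared (adjusted p = 0.0741). It was also lost without M27H4 control replicate 1 (log2 -0.49, adjusted p = 0.0811), without 3T3-L1 control replicate 1 (adjusted p = 0.146) and without 3T3-L1 control replicate 2 (adjusted p = 0.0814), all by edgeR. Without M27H4 control replicate 1, the difference of M27H4 from M6 became a call (log2 -0.92, edgeR adjusted p = 0.00418).

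S100a8 was lower in 3T3-L1 control, at 0.232 and 0.412 CPM, than in M6 control (43.3-fold, log2 -5.43 ± 0.94 SE, edgeR adjusted p = 0.000927) and than in M27H4 control (20.8-fold, log2 -4.38 ± 0.88 SE, edgeR adjusted p = 0.00263). Without M27H4 control replicate 1 the second value was -3.44. M27H4 and M6 controls overlapped in S100a8 through M27H4 replicate 1, the library at 13 CPM, and the difference of -1.06 ± 0.69 (SE) was not called (edgeR adjusted p = 0.292). Without that library it was -1.99 and was called (edgeR adjusted p = 0.0212). The 3T3-L1 level was 51 counts in each control replicate.

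S100a9 had 147 counts in M6 control, 6 in M27H4 control and 3 in 3T3-L1 control. The ratio of count rates was 25.8 (95% exact interval 11.6 to 71.4, counting error only) for M6 over M27H4 and 47.2 (15.9 to 232) for M6 over 3T3-L1. The edgeR test called both (adjusted p = 0.0150 and 0.0134). Neither call was kept without M6 control replicate 2 (adjusted p = 0.0758 and 0.0532), with no filter on low counts (0.0559 and 0.0503) or by DESeq2 (0.168 and 0.144). By edgeR, the first was also lost without M27H4 control replicate 2 (adjusted p = 0.0501) and the second without 3T3-L1 control replicate 1 (adjusted p = 0.108). The fitted change moved to -8.84 without M27H4 control replicate 3 and to -8.83 without 3T3-L1 control replicate 2, the replicates that held all of the counts; these are fits against 0 counts, which depend on the prior count.

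S100a7a ran opposite to its neighbours S100a8 and S100a9, with the lowest values in M6 control, at 0.414 and 0.295 CPM, and 1.12 to 1.91 CPM in M27H4 control and 1.92 to 2.67 CPM in 3T3-L1 control. M6 control did not overlap either line, and the log2 differences were 2.23 ± 0.35 (SE) for M27H4 and 2.72 ± 0.38 (SE) for 3T3-L1. Since the same M6 control replicates entered the comparison by which S100a7a was chosen, these are given as a description. M27H4 and 3T3-L1 controls differed by 0.49 ± 0.31 (SE), which was not called (edgeR adjusted p = 0.237), with all M27H4 replicates just below the 3T3-L1 replicates. M6 knockdown, at 4.86 and 6.08 CPM, was above every replicate of the other lines. The S100a7a order thus ran M6 control, M27H4, 3T3-L1, M6 knockdown, with the M27H4 and 3T3-L1 groups as neighbours that the test did not separate.

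S100a6 and S100a10 were high in every line. S100a6 was at 761 and 767 CPM in 3T3-L1 control, within the M6 control range of 629 to 1367 CPM and below the 1117 to 1517 CPM of M27H4 control. The difference from M27H4 of -0.73 ± 0.29 (SE) was not called (edgeR adjusted p = 0.0663), but 5 of the alternatives gave adjusted p values from 0.0112 to 0.0463. S100a10 was at 318, 353 and 505 CPM in M27H4 control and at 475 and 529 CPM in 3T3-L1 control, both overlapping the 187 and 483 CPM of M6 control. M6 control replicates 1 and 2 decided these comparisons. Without replicate 2, M27H4 was called above M6 for S100a6 (log2 1.01, edgeR adjusted p = 0.0155) and S100a10 (log2 1.06, edgeR adjusted p = 0.0268), and 3T3-L1 above M6 for S100a10 (log2 1.43, edgeR adjusted p = 0.00581). Without replicate 1, 3T3-L1 was called below M6 for S100a6 (log2 -0.84, edgeR adjusted p = 0.0289).

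Among the other genes of the pathway, 7 of 27 partners and targets differed between M27H4 and M6 controls (4 higher, 3 lower), beside 30.2% of all genes tested, and 12 of 27 between 3T3-L1 and M6 controls (9 higher, 3 lower), beside 39.4%. These shares are near those of all genes and say nothing particular to the list. Dysf was 10.1-fold higher in M27H4 and 14.4-fold higher in 3T3-L1 than in M6 (edgeR adjusted p = 3.17e-05 and 1.14e-05). Plat, tissue plasminogen activator, whose plasminogen pathway S100a10 helps at the cell surface, was 10.7-fold and 2.97-fold higher. Anxa1, the S100a11 partner, was 4.84-fold lower in M27H4 than in M6, at 168 ± 18 CPM (SD, n = 3) against 814 ± 166 CPM (SD, n = 2). Trpv6, a calcium channel that binds S100a10, was at 129 ± 4 CPM in M6 control (SD, n = 2) and under 1 CPM in mean in both other lines. Mdm2, which binds several S100 proteins, was at 5517 ± 580 CPM in 3T3-L1 control against 69.2 ± 2.7 CPM in M6 control (SD, n = 2 each).

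Of 12 tested receptors and signalling genes, 5 differed between M27H4 and M6 (2 higher, 3 lower), beside 30.2% of all genes tested (15.2% higher, 15% lower). In 3T3-L1 against M6, 6 of the 12 were lower and 0 higher, beside 18.9% lower and 20.5% higher of all genes tested. Ager was at 2.19 ± 0.50 CPM in M6 control (SD, n = 2) and lower by 3.43-fold in M27H4 and by 2.50-fold in 3T3-L1 (edgeR adjusted p = 0.006001 and 0.0408). Cd14, the coreceptor of Tlr4, was lower by 4.19-fold and 13.1-fold. Alcam was also called lower in M27H4 than in M6 (9.22-fold), while the 2 called higher there were Itgb2 (3.53-fold) and Nptn (2.04-fold). Of 14 tested inducers and regulators, 2 were higher and 3 lower in M27H4, and 0 were higher and 7 lower in 3T3-L1. All were against M6 and beside the same shares of all genes by direction. Tnf and Il1a were lower in both lines than in M6, Tnf by 191-fold in M27H4 (log2 -7.58 ± 0.47 SE), where its control mean was 0.227 CPM. Cebpa, a myeloid and adipocyte regulator that binds C/EBP motifs, was 14.5-fold higher in M27H4 than in M6.

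Of the 6 tested other S100 genes, 1 was called between M27H4 and M6 controls and 3 between 3T3-L1 and M6 controls, beside 30.2% and 39.4% of all genes tested. S100a3 was higher in M27H4 control, at 7.10 ± 1.60 CPM (SD, n = 3), than in M6 control, at 1.70 ± 1.03 CPM (SD, n = 2; edgeR adjusted p = 0.00398). S100a13 was lower in 3T3-L1 control than in both tumour lines, by 3.19-fold from M6 and 4.71-fold from M27H4, the same direction as its head-to-head neighbour S100a1. The keratins Krt6a and Krt16, which like S100a7a and S100a8 are known from activated epidermis, were 119-fold and 11.1-fold lower in M27H4 than in M6. The log2 differences were -6.89 ± 1.72 (SE) for Krt6a, so its fold is loosely fixed, and -3.48 ± 0.30 (SE) for Krt16.

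The genes whose levels ran most like 3 members over the 14 replicates were ranked by Pearson r of log2 CPM among all tested genes, as a description over replicates that share lines and lanes. For S100a7a these were Abcb1b (r = 0.893), Pid1 (r = 0.852), Gm43488 (r = 0.846), Nucb2 (r = 0.837) and Ercc5 (r = 0.835). Abcb1b, a drug-efflux pump, had group means of 15.2 CPM in M6 control, 68.0 CPM in M6 knockdown, 46.6 CPM in M27H4 control and 65.3 CPM in 3T3-L1 control, so that M6 control was the lowest group, as for S100a7a. The M6 values of S100a7a entered both this ranking and the choice of the set, so its likeness to these genes carries no support. For S100a14 they were Coro2a, Crip1, Arg2, Urah and Orm1, with r between 0.990 and 0.991. Coro2a, a coronin, had means of 70.8 CPM in M6 control, 1.62 CPM in M27H4 control and 0.263 CPM in 3T3-L1 control. For S100a4 they were Prkg1, Hspa12b, Cfap74, Selenom and Gdap1l1, with r from 0.986 to 0.990. Selenom, the best expressed of them in M6, had means of 9.70, 18.7 and 51.4 CPM in the controls of M6, M27H4 and 3T3-L1.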

How the data were processed

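Total RNA (RNeasy) was depleted of ribosomal RNA (Ribo-Zero Gold) and made into SureSelect strand-specific libraries, per the labels' protocols. The submitters' processing notes name cutadapt, HISAT2 with mm10, StringTie and edgeR. Versions, the annotation release and the strand setting of counting are not given in the sources used here. The deposited gene table holds expected counts, estimates from StringTie given as whole numbers, and the deposited CPM tables hold a normalised signal with column totals from 925532 to 1053335, used only to compare levels. Of the gene CPM columns, 1 matched no sample and was not used.

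Names came from GENCODE M21, which matched 48058 of 48440 identifiers. The 21 columns were summed to 14 biological replicates, since the labels call the others technical replicates. Tests used edgeR 4.0.16 in R 4.3.3: filterByExpr by group, TMM factors, 1 robust quasi-likelihood fit over all 6 groups (8 residual degrees of freedom, biological coefficient of variation 0.323), and Benjamini-Hochberg adjustment over all 21237 genes, with calls at an adjusted p under 0.05. Each SE is the log2 change over the square root of F. Intervals for counts cover counting error only, as the reads carry no molecular identifiers. The code was tested on simulated counts.

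The members, the lists of partners, receptors, inducers and markers, and the rule for named genes were chosen with earlier results of these data known. The rule selected all members, up to 4 called genes of each list in each direction with at least 1 CPM, and the 5 genes most like S100a7a, S100a14 and S100a4. Of the list genes it selected between lines, only a part is described above, picked with their values known. Abcb1b, Coro2a, Selenom and the uncalled genes described in M6 knockdown were also picked for description after their values were seen. Alternatives were RLE factors, DESeq2 1.42.0, no low-count filter, only the groups compared, a replicate block, columns as libraries, 1 lane only for M6, and each replicate left out. The main fit used the groups only and did not pair replicates. Replicate numbers were taken as pairs only in the replicate block. For M27H4 this was because same-numbered samples deviated together (r = 0.283, 0.211 and 0.181).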

Additional observations from a re-analysis of the deposited data

How the results depend on the processing

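The count of members called in M6 knockdown, 1, was 0 with only the groups compared, 3 with the replicate block and with columns as libraries (S100a7a, S100a8 and S100a9), and 2 by DESeq2 (S100a7a and S100a8), and stayed at 1 without any single replicate; the cause was not tested. The replicate block also moved the count over all genes there from 29 to 293. Columns as libraries gave 546, DESeq2 235, no filter on low counts 64 and only the groups compared 0, and leaving out a replicate gave 4 to 62. In M6 and 3T3-L1 the labels give the samples of a pair only a shared number (r = 0.3 and 0.184 between same-numbered samples). By the lane reading used here, same-numbered samples also shared their lanes in M27H4, in 3T3-L1 and for M6 replicate 1. Those of M6 replicate 2 shared them in part. What pairs share beyond the lane therefore cannot be told apart from the lane. With the replicate block no member was called in M27H4 or 3T3-L1 overexpression. The block was not fitted between lines. In every other comparison the count of members called kept within 1.5 times under each alternative run. Members near 0 changed sign. In M6 knockdown S100a4 was -0.023 with columns as libraries, S100a6 0.01 with the replicate block and 0.179 on the all-M6 lane, and S100a10 0.053 on that lane. In M27H4 overexpression the replicate block gave 0.045 for S100a11 and 0.157 for S100a8, and columns as libraries 0.096, 0.038 and 0.04 for S100a11, S100a8 and S100a16. In 3T3-L1 overexpression S100a16 was -0.008 with RLE factors and by DESeq2 and -0.016 with no filter. In M27H4 against M6 controls, columns as libraries gave -0.037 for S100a10 and -0.046 for S100a16. Leaving out a replicate, which kept the same tested genes and let a lone sample borrow the spread of the other groups, reversed further uncalled log2 differences, over the ranges that follow. In M6 knockdown these were S100a4 -0.66 to 1.16, S100a11 -0.11 to 0.18, S100a6 -0.53 to 0.60, S100a1 -0.64 to 0.24, S100a10 -0.74 to 0.63, S100a14 -0.20 to 0.79 and S100a16 -0.11 to 0.82. In M27H4 overexpression these were S100a4 -0.084 to 0.48, S100a11 -0.28 to 0.37, S100a7a -0.049 to 0.29, S100a8 -0.59 to 0.77, S100a1 -0.082 to 0.24, S100a10 -0.024 to 0.33 and S100a16 -0.20 to 0.17. In 3T3-L1 overexpression these were S100a4 -0.19 to 0.063, S100a7a -0.34 to 0.13, S100a8 -1.06 to 0.97, S100a6 -0.060 to 0.13, S100a1 -0.19 to 0.52, S100a10 -0.14 to 0.006, S100a14 -0.029 to 0.24 and S100a16 -0.47 to 0.71. In M27H4 against M6 controls these were S100a6 -0.11 to 1.01, S100a1 -0.074 to 0.80, S100a10 -0.30 to 1.06 and S100a16 -0.17 to 0.74. In 3T3-L1 against M6 controls these were S100a6 -0.84 to 0.29. In the difference between overexpression effects these were S100a8 -1.14 to 0.90. The summed level of the members moved by less than 1 SD in each group by raw totals or by the deposited CPM. Depth limits S100a9 outside M6, where 3 counts over a group amount to 0.00759 to 0.00873 CPM.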
